A study of Homo sapiens with 6 samples.

Results

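The genes described here encode the nuclear subunits of the oxidative phosphorylation complexes of the mitochondrial inner membrane. They were chosen by symbol, from the naming stems of complexes I to V (NDUF, SDH, UQCR and CYC1, COX, ATP5). The symbol rule itself holds no measured value, but it was set with earlier results of these data known. Of the 37871 genes in the count table, 105 had a matching symbol. Of these, 78 are subunit genes, and the other 27 are 26 processed pseudogenes and the retrogene ATP5MGL. All 78 subunit genes and 1 pseudogene, ATP5MC1P4, had enough counts to be tested, and the other 26 did not, with at most 17 counts in any library and 8 of them at 0 in every library. ATP5MC1P4 stood at 2.27, 2.33 and 2.18 CPM (counts scaled to 1e6 per library) after treatment and at 3.12, 2.16 and 1.72 CPM in vehicle, and with its parent ATP5MC1 it may share reads.

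The cells were T24, a human bladder carcinoma line in long-established use, and RNA was sequenced in 2 groups of 3 libraries. The LPS plus nigericin group received lipopolysaccharide, a bacterial cell wall component, together with nigericin, an ionophore that exchanges potassium for protons across membranes. The vehicle group received the carrier. Both groups were grown in high-glucose DMEM with antibiotics, and the sources used here give neither doses nor treatment time. No group received either agent alone, so no value below can be assigned to one of them. The labels do not state that replicate libraries were separate cultures, or that both groups were prepared together. The p-values therefore measure the spread between these libraries, and preparation and treatment cannot be told apart.

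Complexes I to IV pass electrons from NADH and succinate through ubiquinone and cytochrome c to oxygen and, except for complex II, pump protons out of the matrix. Complex V, the ATP synthase, uses the returning protons to make ATP. Most subunits are encoded in the nucleus and imported, while the mitochondrial genome encodes a small set of core membrane subunits of complexes I, III, IV and V, so assembly draws on transcripts of both genomes. Many promoters of the nuclear genes carry sites for NRF1, for ETS-family factors such as GABPA and for YY1.

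The libraries held 66180407, 86594539 and 85513548 counts after LPS plus nigericin and 89152224, 81917343 and 82429803 counts in vehicle, and 19170 genes could be tested. The cell type label, epithelial, was met by high keratin levels (KRT7 at 2032 ± 280.0 CPM in treated and 3352 ± 640.0 CPM in vehicle libraries, SD, n = 3 each), whereas CDH1 and UPK3A had too few counts to be tested. EPCAM and UPK2 were low, with means of 2.9 and 0.20 CPM in treated and 1.9 and 0.53 CPM in vehicle libraries. The 10 epithelial and urothelial markers summed to 3560 to 4567 CPM in treated and 6637 to 9639 CPM in vehicle libraries, and 6 of the 8 tested fell. With the GC and length correction described further on 5 fell, and KRT7 did not pass (log2 fold change 0.0002, edgeR adjusted p = 0.998). Markers of fibroblasts summed to 3.23 to 3.99 CPM in treated and 3.57 to 4.75 CPM in vehicle libraries, those of leukocytes to 2.77 to 3.56 CPM in treated and 4.88 to 12.0 CPM in vehicle libraries, and those of endothelium stayed at or below 0.851 CPM throughout. Their part in the results was not tested.

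After LPS plus nigericin, transcripts of the nuclear subunits were lower as a group. Of the 79 matching genes tested, 51 fell, 1 rose and 27 did not pass the threshold (edgeR quasi-likelihood test, Benjamini-Hochberg adjusted p under 0.05 over all tested genes). Over all 19170 tested genes, 26.4% fell and 28.9% rose. Members at least 2-fold lower numbered 15, where the share over all tested genes was 14.3%. The members' median log2 fold change was -0.55, beside 0.0016 for all tested genes, and individual values ran from -2.42 for NDUFV3 to 0.34 for NDUFA10. By complex the medians were -0.70 for I, -0.21 for II, -0.79 for III, -0.46 for IV and -0.35 for V. With the correction for GC content and transcript length that is described further on they were -0.42, -0.68, -0.41, -0.51 and -0.44, so the order of the complexes turned with it. In 55 members every treated library lay below every vehicle library, and in 5 every treated library lay above, where over all tested genes the shares were 32% and 35%. In bulk RNA a lower share of the counts cannot be told apart from fewer cells with the transcript or from less of it per cell.

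**Figure D1:**
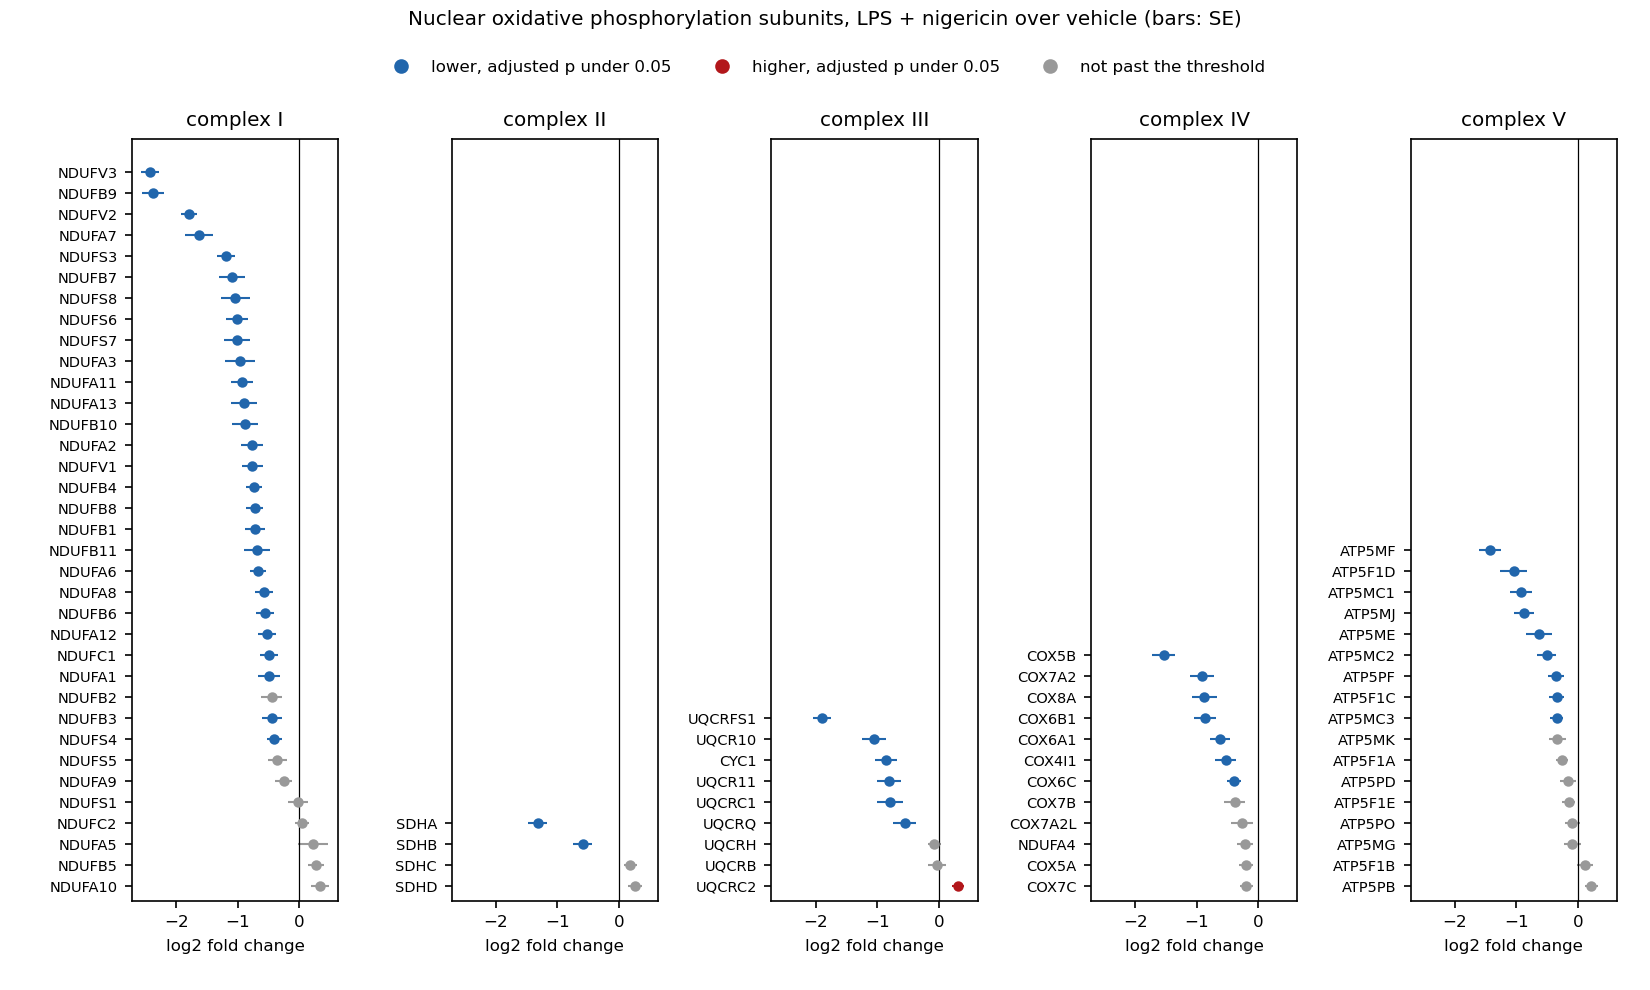
Log2 fold change (x axis, LPS plus nigericin over vehicle) of each of 77 subunit genes (y axis) by complex, with standard errors as bars and colour for the test. The blue points of genes that fell fill most of complexes I and III and reach -2.42 for NDUFV3, and UQCRC2 is the 1 red point.

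Summed over all 78 subunit genes, the level was 5752, 6769 and 6101 CPM in the treated libraries, against 8723, 10512 and 7656 CPM in the vehicle libraries, so the groups did not overlap. Complex I gave 1870 ± 175 CPM after treatment and 3123 ± 563 CPM in vehicle (SD, n = 3 each), complex II 381 ± 15.2 and 554 ± 75.4 CPM, complex III 730 ± 58.5 and 1075 ± 170.0 CPM, and complex IV 1156 ± 128 and 1755 ± 336 CPM, treated before vehicle in each pair. For complex V the sums were 1937, 2222 and 2052 CPM in treated libraries and 2413, 2775 and 2182 CPM in vehicle libraries. Here the groups overlapped, because the treated library 2 lay above the vehicle library 3. With 3 libraries a group, a two-sided exact permutation test cannot go below 0.1, so no test is given for these sums.

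**Figure D2:**
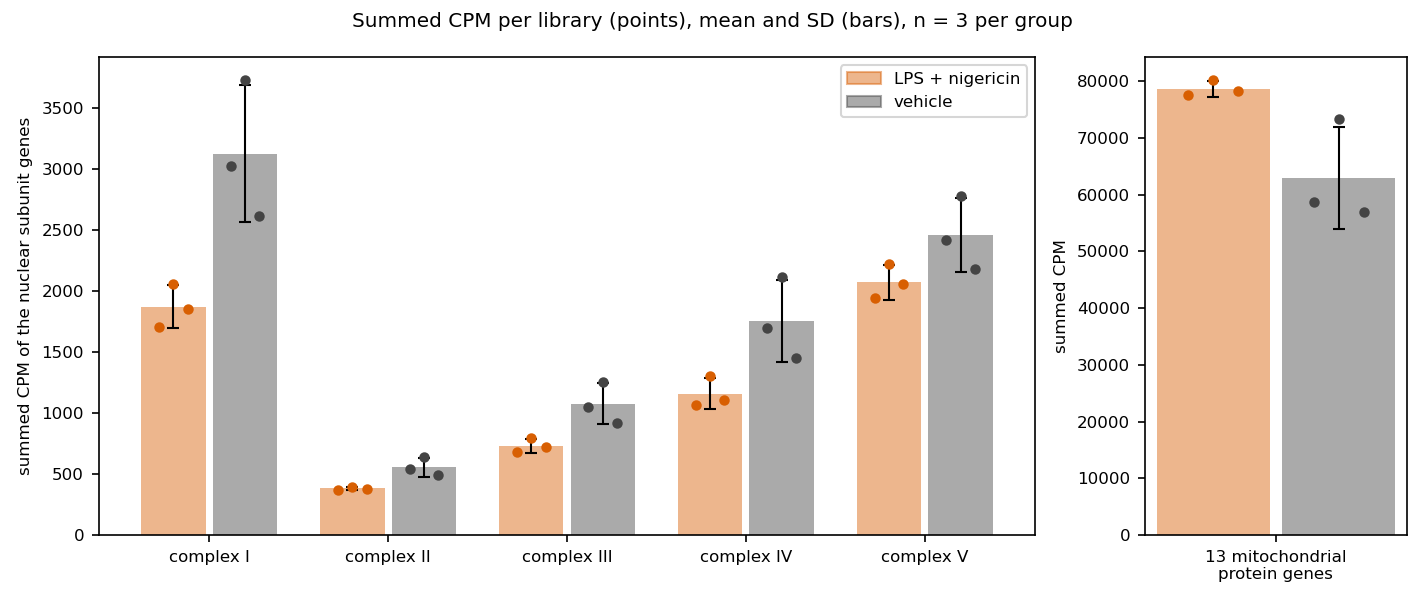
Summed CPM (y axis) of the nuclear subunit genes of each complex (x axis) and, on its own axis, of the 13 mitochondrial protein genes, with LPS plus nigericin left of vehicle, bars for means, whiskers for SD and points for the 3 libraries. Treated points lie below vehicle points for complexes I to IV and overlap for complex V, and lie above them for the mitochondrial genes, at 77525 to 80220 CPM against 56881 to 73251 CPM.

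The promoters of 4 members are shown here because they differ in the sites that nuclear respiratory genes are known for. SDHA, UQCRFS1 and COX5B are among the members with the largest falls, and UQCRC2 is the 1 that rose. They do not stand for all members, since others with large falls had no such match, as given below. Each sequence covers the 200 bases before the gene's start in RefSeq (GRCh38.p14), 5′ to 3′ on the gene's strand, and capitals mark matches to the NRF1 motif (GCGCA and GCGC with any 1 base between them) or the ETS motif (CCGGAAG) on either strand. The windows are chr5:218120-218319 on the plus strand for SDHA, chr19:29213152-29213351 on the minus strand for UQCRFS1, chr2:97645862-97646061 on the plus strand for COX5B and chr16:21953161-21953360 on the plus strand for UQCRC2. GENCODE 29 places the outermost start of each of these genes elsewhere, inside the window for SDHA and COX5B and before it for UQCRFS1 and UQCRC2.
SDHA: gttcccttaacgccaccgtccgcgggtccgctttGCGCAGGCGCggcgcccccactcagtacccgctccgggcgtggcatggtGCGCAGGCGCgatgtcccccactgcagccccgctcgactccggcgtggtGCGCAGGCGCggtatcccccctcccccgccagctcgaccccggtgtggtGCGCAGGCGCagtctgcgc
UQCRFS1: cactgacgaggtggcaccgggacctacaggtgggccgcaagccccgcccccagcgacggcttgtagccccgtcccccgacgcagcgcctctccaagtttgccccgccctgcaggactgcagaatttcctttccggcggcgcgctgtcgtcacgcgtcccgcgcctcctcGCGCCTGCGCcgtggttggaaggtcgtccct
COX5B: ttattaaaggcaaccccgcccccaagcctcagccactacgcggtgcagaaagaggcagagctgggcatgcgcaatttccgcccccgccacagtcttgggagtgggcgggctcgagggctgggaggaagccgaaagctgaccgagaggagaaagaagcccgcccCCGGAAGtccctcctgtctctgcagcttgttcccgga
UQCRC2: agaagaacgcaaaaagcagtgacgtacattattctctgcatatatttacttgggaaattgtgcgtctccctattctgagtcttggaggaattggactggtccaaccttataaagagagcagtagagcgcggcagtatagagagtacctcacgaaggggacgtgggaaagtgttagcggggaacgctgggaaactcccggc

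SDHA carried 4 NRF1 matches in this stretch, the first base of each at -166, -117, -68 and -19 relative to the start. UQCRFS1 carried 1 NRF1 match, at -31, COX5B 1 ETS match, at -37, and UQCRC2 none of either motif. In windows of 300 bases (250 before to 50 after the start), 64 of the 78 subunit genes had a RefSeq promoter, and 6 motifs were searched on both strands. The NRF1 motif was present in 25.0% of these 64, against 10.9% of 12259 tested genes with a window and 6.28% of all 27305 promoters. The YY1 motif AANATGGC was present in 34.4% of the subunit genes, 9.46% of tested genes and 6.82% of all promoters, and the ETS motif in 31.2%, 18.1% and 10.7%. For the CCAAT box (CCAAT) the shares were 32.8%, 36.2% and 35.7%, for the cyclic AMP element TGACGTCA 7.81%, 3.12% and 1.98%, and for the NF-kappaB motif (GGGA and TTTCC with any 1 base between them) 1.56%, 0.604% and 0.579%, in the same order. The NF-kappaB share of the subunit genes was 1 gene of 64, UQCRC2. The GCGC ends of the NRF1 motif make it likelier in GC-rich windows, and the matches are a description of letters and not of binding.

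Split by response, the NRF1 motif stood in 28.9% of the 45 subunit genes that fell and 15.8% of the other 19, the YY1 motif in 37.8% and 26.3%, and the ETS motif in 31.1% and 31.6%. With 45 and 19 promoters these shares are counts of a few genes, and no test was made of them. NDUFV3, which had the largest fall, had no match to any of these 3 motifs in its window. NDUFV2 and NDUFA7, at log2 fold changes of -1.79 and -1.62, had no NRF1 or ETS match.

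Complex I takes electrons from NADH through a flavin and a chain of iron-sulfur clusters, and 36 of the genes encode its subunits. Of these, 27 fell, 0 rose and 9 did not pass the threshold, with a median log2 fold change of -0.70. Among the 9 only 2 had every treated library above every vehicle library (NDUFB5 and NDUFA10). For this and the other complexes, the shares over all tested genes were 26.4% lower and 28.9% higher. With the GC and length correction they were 29.6% and 24.9% of protein-coding genes. Under that correction 27 genes of complex I fell, and 22 genes fell in both fits. Core subunits, which hold the cofactors and the quinone site, were among those that fell. Accessory subunits, which surround and stabilise the core, fell in 9 of 12 NDUFA genes, 9 of 11 NDUFB genes, 1 of 2 NDUFC genes and 3 of 4 accessory NDUFS and NDUFV genes.

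NDUFV3, a small accessory subunit of the NADH-binding module, had the largest fall of all 78. It stood at 9.48, 8.97 and 9.88 CPM after LPS plus nigericin and at 49.2, 57.8 and 44.6 CPM in vehicle. The treated libraries were thus close together and far below all vehicle libraries, and the fall was 5.35-fold (log2 fold change -2.42, SE 0.15, edgeR adjusted p = 3.51e-05). The gene (ENSG00000160194) lies on chromosome 21 (plus strand, 42879644 to 42913304, GRCh38), and no exon of it overlaps another gene by 50 bases or more.

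The NADH-binding module showed unequal changes among its core subunits. NDUFV2, which carries an iron-sulfur cluster beside the flavin, had 26.0, 27.5 and 22.7 CPM in treated libraries and 89.4, 78.9 and 95.0 CPM in vehicle libraries. All treated values lay below all vehicle values (log2 fold change -1.79, SE 0.13, edgeR adjusted p = 6.66e-05). NDUFV1, the flavin- and NADH-binding subunit, had 221, 279 and 253 CPM after treatment and 426, 517 and 333 CPM in vehicle, again without overlap (log2 fold change -0.76, SE 0.17, edgeR adjusted p = 0.00708). NDUFS1, the largest iron-sulfur subunit, had 45.7, 40.7 and 41.5 CPM in treated and 42.5, 35.1 and 52.5 CPM in vehicle libraries. Its groups overlapped fully and the log2 fold change was -0.02 (SE 0.16, edgeR adjusted p = 0.908).

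With the GC and length correction, NDUFV1 no longer passed (log2 fold change -0.09, edgeR adjusted p = 0.315) and NDUFS1 did (-0.97, edgeR adjusted p = 2.45e-05). The principal transcript of NDUFS1 is 11819 bases long in GENCODE 29 and that of NDUFV1 1596 bases. NDUFV2 and NDUFV3 fell under each of the 16 alternatives run. Exons of NDUFV2 share 771 bases with AP005263.1 on the same strand, and those of NDUFV1 overlap AP003385.3 on the same strand. NDUFS1 overlaps GCSHP3 on its own strand and AC007383.3 on the opposite one. None of the 16 alternatives changed how shared bases were counted.

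The quinone-side core subunits NDUFS3, NDUFS8 and NDUFS7 fell with log2 fold changes of -1.19, -1.04 and -1.01. NDUFS8, which binds a pair of iron-sulfur clusters, had 120, 172 and 159 CPM in treated libraries and 286, 417 and 224 CPM in vehicle libraries. The vehicle libraries spread widely, with library 2 highest and library 3 lowest, and still all lay above the treated ones. NDUFS6 and NDUFS4, accessory subunits next to the NADH-binding module, fell with log2 fold changes of -1.01 and -0.40. Corrected for GC content and length, NDUFS3 was at -0.79, NDUFS8 at -0.30, NDUFS7 at -0.22 and NDUFS6 at -0.65, all still passing, and NDUFS7 was lost when the replicate block was added. NDUFS4 did not pass without treated library 1 or without treated library 3 (edgeR adjusted p up to 0.0780). On the same strand, exons of NDUFS3 overlap PTPMT1 and those of NDUFS8 overlap MIR4691 and MIR7113. NDUFS7 overlaps AC005329.1 and AC005329.3 on the opposite strand.

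In the membrane arm, NDUFB9 had 29.4, 35.0 and 30.9 CPM after treatment and 158, 204 and 132 CPM in vehicle, with every treated library far below every vehicle library (log2 fold change -2.37, SE 0.18, edgeR adjusted p = 7.03e-05). NDUFA7, an accessory subunit of the peripheral arm, had 9.51, 14.5 and 9.93 CPM in treated and 36.8, 41.4 and 26.8 CPM in vehicle libraries, also without overlap (log2 fold change -1.62, SE 0.23, edgeR adjusted p = 0.000811). Both values carry an uncertainty of annotation. Exons of NDUFB9 overlap those of TATDN1 and MTSS1, and exons of NDUFA7 those of RPS28, on the opposite strand, and no source used here states the strand setting of the counting. NDUFA7 also shares exon bases with AC010323.1 on its own strand, which no strand setting would separate.

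NDUFB7, NDUFB10, NDUFB4, NDUFB8 and NDUFB1 fell with log2 fold changes of -1.09, -0.88, -0.74, -0.73 and -0.72, and NDUFA3, NDUFA11 and NDUFA13 with -0.96, -0.93 and -0.90. Under the GC and length correction NDUFB10 and NDUFA13 did not pass (-0.23 and -0.21, edgeR adjusted p = 0.0789 and 0.0887). NDUFB7, NDUFB8, NDUFA3 and NDUFA11 passed at -0.37, -0.30, -0.44 and -0.28, and NDUFB4 and NDUFB1 at -0.76 and -0.63. NDUFA3 was lost without treated library 1 and with the correction and the replicate block together (edgeR adjusted p = 0.0516 and 0.0533). At the other end stood NDUFA10, an accessory subunit related to nucleoside kinases, with 93.4, 91.6 and 89.1 CPM in treated and 64.2, 87.9 and 65.0 CPM in vehicle libraries. The groups did not overlap, but vehicle library 2 came close, and its difference of 0.34 on the log2 scale (SE 0.14) did not pass (edgeR adjusted p = 0.0781). NDUFB5, NDUFA5 and NDUFC2 had log2 fold changes of 0.27, 0.22 and 0.04 and edgeR adjusted p-values of 0.0990 to 0.784.

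**Figure D3:**
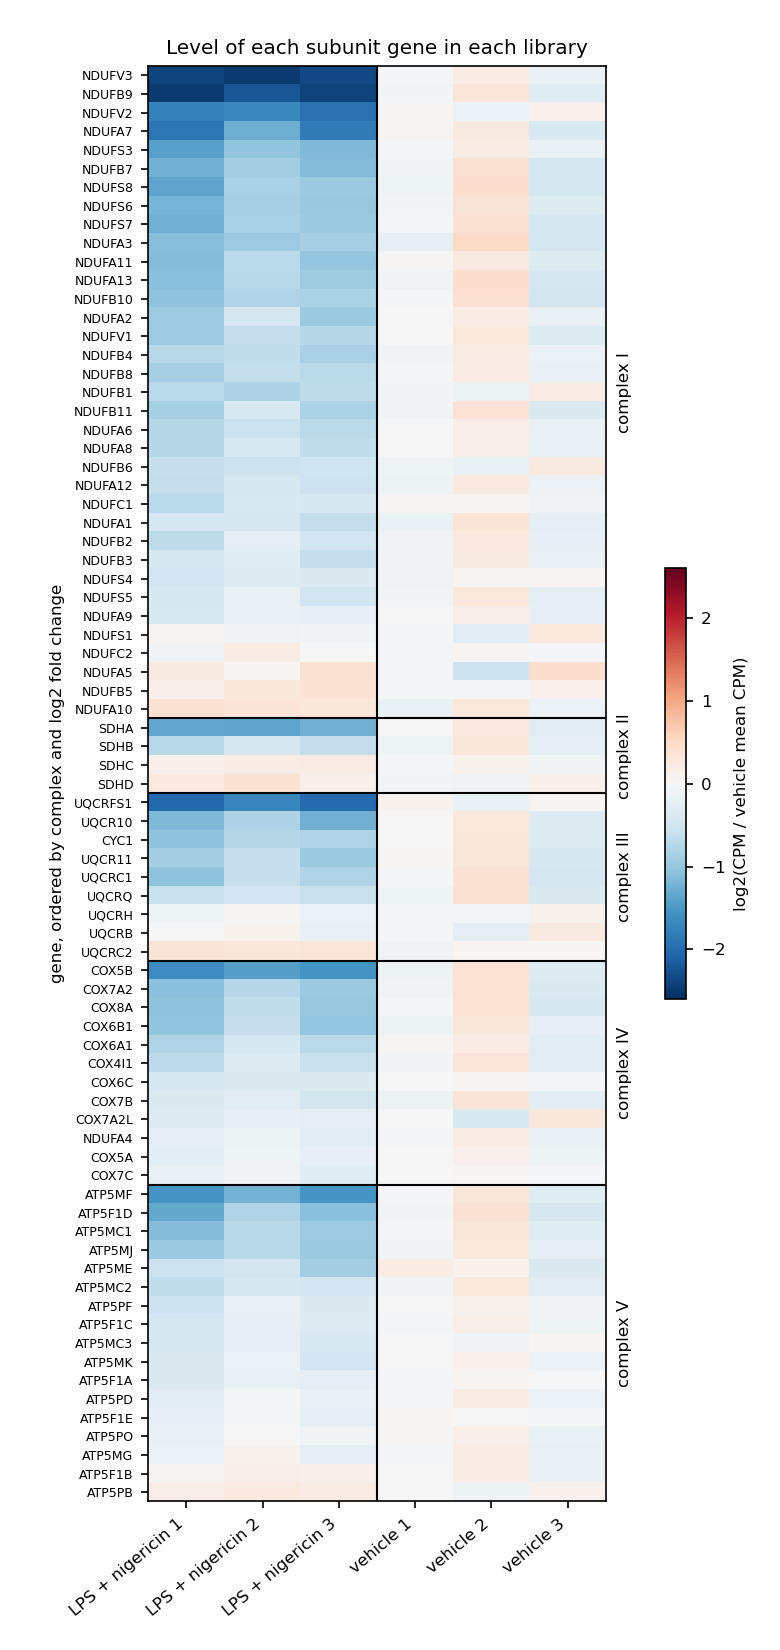
Level of each of 77 subunit genes (rows, by complex and log2 fold change) in each library (columns, LPS plus nigericin left of vehicle), as log2 of its CPM over the vehicle mean, blue for lower and red for higher. Most rows are blue in all 3 treated libraries, palest in treated library 2, and vehicle library 2 is redder than the other vehicle libraries in most of the rows that fell.

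Complex II, succinate dehydrogenase, belongs both to the citrate cycle and to the respiratory chain and has no subunit from the mitochondrial genome. Its catalytic subunits fell, and its membrane anchors did not pass the threshold. SDHA, the flavoprotein that oxidises succinate, had 96.6, 96.1 and 104 CPM in treated libraries and 245, 295 and 201 CPM in vehicle libraries. All vehicle values lay far above all treated values, and the fall was 2.50-fold (log2 fold change -1.32, SE 0.15, edgeR adjusted p = 0.000341). SDHB, the iron-sulfur subunit, had 91.4, 109 and 97.8 CPM after treatment and 140, 184 and 126 CPM in vehicle, without overlap (log2 fold change -0.59, SE 0.16, edgeR adjusted p = 0.0138). The SDHB call was lost without treated library 1 or treated library 3 (edgeR adjusted p up to 0.0576).

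SDHC and SDHD anchor the enzyme in the membrane and form the quinone site with SDHB. SDHC had 82.0, 85.7 and 87.0 CPM in treated libraries and 73.8, 80.1 and 70.6 CPM in vehicle libraries, with the treated ones slightly above (log2 fold change 0.18, SE 0.10, edgeR adjusted p = 0.170). SDHD had 97.3, 106 and 89.8 CPM in treated and 78.0, 76.7 and 90.0 CPM in vehicle libraries, which overlapped (log2 fold change 0.26, SE 0.12, edgeR adjusted p = 0.0937). Under the GC and length correction SDHC turned to -0.81 (edgeR adjusted p = 0.00541) and SDHD to -0.16 (edgeR adjusted p = 0.231), while SDHA stayed at -1.06 and SDHB at -0.54. The SDHC model is 13566 bases long, against 2390 bases for SDHA.

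Complex III, the cytochrome bc1 complex, passes electrons from ubiquinol to cytochrome c. Of its 9 nuclear subunits 6 fell, 1 rose and 2 did not pass, with a median log2 fold change of -0.79. Both nuclear redox subunits fell. UQCRFS1, the Rieske iron-sulfur protein that takes the first electron from ubiquinol, had 14.8, 18.5 and 15.0 CPM in treated and 64.3, 53.1 and 63.0 CPM in vehicle libraries. It was 3.73-fold lower, with no treated library near a vehicle library (log2 fold change -1.90, SE 0.15, edgeR adjusted p = 7.90e-05). Its fall held under each of the 16 alternatives. CYC1, cytochrome c1, had 125, 154 and 149 CPM after treatment and 254, 316 and 202 CPM in vehicle, without overlap (log2 fold change -0.85, SE 0.18, edgeR adjusted p = 0.00442). With the GC and length correction CYC1 was at -0.12 (edgeR adjusted p = 0.143).

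The core proteins UQCRC1 and UQCRC2, large matrix-side subunits related to processing peptidases, moved in opposite directions. UQCRC1 had 148, 202 and 177 CPM in treated libraries and 292, 393 and 224 CPM in vehicle libraries, without overlap (log2 fold change -0.79, SE 0.21, edgeR adjusted p = 0.0139). UQCRC2 had 144, 141 and 142 CPM in treated libraries and 108, 118 and 116 CPM in vehicle libraries, with every treated library above (log2 fold change 0.32, SE 0.10, edgeR adjusted p = 0.0244). Neither call held under every alternative. The rise of UQCRC2 was lost with library totals, with no count filter and with the replicate number as a block (edgeR adjusted p = 0.0513 to 0.0618). It was also lost without vehicle library 1, and without each of the treated libraries taken singly (edgeR adjusted p = 0.0687 to 0.128). With the GC and length correction it was at -0.17 (edgeR adjusted p = 0.231), and UQCRC1 at -0.21 (edgeR adjusted p = 0.152).

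Among the accessory subunits of complex III, UQCR10 had 28.2, 35.9 and 26.1 CPM after treatment and 61.8, 75.0 and 49.5 CPM in vehicle, without overlap (log2 fold change -1.05, SE 0.19, edgeR adjusted p = 0.00250). UQCR11 and UQCRQ fell with log2 fold changes of -0.80 and -0.55. The UQCRQ call was lost with the GC and length correction (-0.41, edgeR adjusted p = 0.0512), without vehicle library 1 and without each treated library in turn (edgeR adjusted p up to 0.105). UQCRH, the hinge protein, and UQCRB, which borders the quinone site, had log2 fold changes of -0.07 and -0.03, with overlapping groups.

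**Figure D4:**
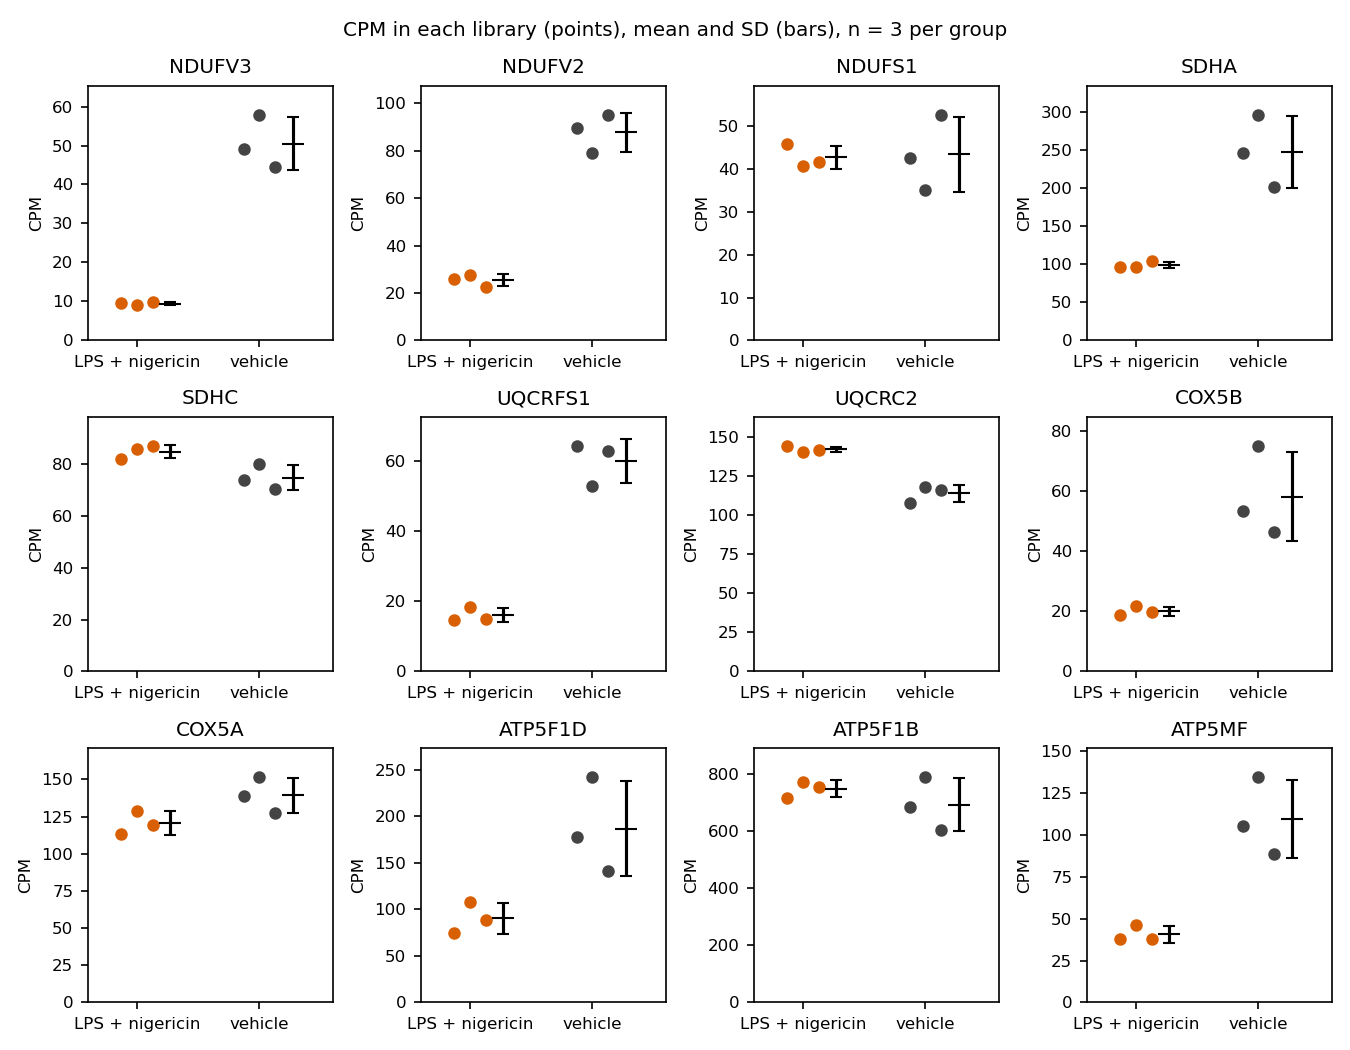
CPM (y axis, from 0) of 12 subunit genes in each library (points) with the mean and SD (bars), n = 3 per group, LPS plus nigericin left of vehicle (x axis). NDUFV3, UQCRFS1 and COX5B show treated points far below all vehicle points, whereas NDUFS1 and ATP5F1B overlap and SDHC and UQCRC2 lie slightly above vehicle.

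Complex IV, cytochrome c oxidase, reduces oxygen at a core that the mitochondrial genome encodes, and the 12 nuclear subunits listed here surround that core. Of these, 7 fell, 0 rose and 5 did not pass, with a median log2 fold change of -0.46, and all 12 values were below 0. With the GC and length correction 10 fell and 0 rose. COX5B, a zinc-binding subunit on the matrix side, had 18.7, 21.7 and 19.6 CPM in treated libraries and 53.1, 74.8 and 46.3 CPM in vehicle libraries. It was 2.90-fold lower with no overlap (log2 fold change -1.54, SE 0.19, edgeR adjusted p = 0.000490). COX5A, its partner on the matrix side, had 113, 129 and 120 CPM in treated and 139, 152 and 128 CPM in vehicle libraries, with treated library 2 inside the vehicle range (log2 fold change -0.21, SE 0.11, edgeR adjusted p = 0.150).

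COX4I1, the subunit that binds ATP and is among the first to join the core, had 241, 304 and 262 CPM in treated and 370, 481 and 315 CPM in vehicle libraries. The groups came close, between treated library 2 and vehicle library 3 (log2 fold change -0.53, SE 0.17, edgeR adjusted p = 0.0307). Its fall was lost without vehicle library 1, treated library 1 or treated library 3 (edgeR adjusted p up to 0.110) and with the GC and length correction (-0.08, edgeR adjusted p = 0.413). The transmembrane subunits COX7A2 and COX8A and the subunit COX6B1, which faces cytochrome c, fell with log2 fold changes of -0.92, -0.88 and -0.86. These 3 calls held under all 16 alternatives, at smaller values with the GC and length correction for COX8A (-0.31) and COX6B1 (-0.38). COX7A2 had 43.2, 54.8 and 46.8 CPM after treatment and 85.7, 117 and 70.7 CPM in vehicle, and COX8A had 205, 273 and 213 CPM after treatment and 409, 544 and 317 CPM in vehicle, both without overlap. NDUFA4, first assigned to complex I and now to complex IV, and COX7A2L, a factor of supercomplexes, had log2 fold changes of -0.22 and -0.26 and did not pass. With the GC and length correction both passed, at -0.88 and -0.41 (edgeR adjusted p = 0.0129 and 0.0142).

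In complex V, which makes ATP, 9 of 17 genes fell and 0 rose, with a median log2 fold change of -0.35, and with the GC and length correction 11 fell. The catalytic F1 head was split. ATP5F1B, which encodes the catalytic beta subunit, had 713, 772 and 755 CPM in treated and 683, 787 and 604 CPM in vehicle libraries. The treated values lay inside the vehicle range (log2 fold change 0.11, SE 0.13, edgeR adjusted p = 0.483). ATP5F1A, the alpha subunit, had 145, 164 and 160 CPM after treatment and 182, 191 and 190 CPM in vehicle, without overlap, but did not pass (log2 fold change -0.26, SE 0.10, edgeR adjusted p = 0.0541). ATP5F1D, the delta subunit at the foot of the central stalk, had 74.8, 108 and 88.6 CPM after treatment and 178, 242 and 141 CPM in vehicle, without overlap (log2 fold change -1.05, SE 0.22, edgeR adjusted p = 0.00467). After correction for GC content and length ATP5F1A passed (-0.95, edgeR adjusted p = 0.000459), ATP5F1D was at -0.24 and still passed, and ATP5F1B was at 0.16 (edgeR adjusted p = 0.207).

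In the membrane part, ATP5MF, the f subunit, had 37.8, 46.5 and 37.8 CPM in treated and 105, 134 and 88.6 CPM in vehicle libraries, with all treated values below (log2 fold change -1.43, SE 0.18, edgeR adjusted p = 0.000472). Its exons overlap the read-through gene ATP5MF-PTCD1 and PTCD1 on the same strand, so reads may have been split among them. The 3 genes for subunit c, whose proteins are identical once their targeting peptides are removed, all fell, and their order depended on the processing. ATP5MC1 had 69.8, 93.1 and 80.2 CPM after treatment and 150, 188 and 123 CPM in vehicle, without overlap (log2 fold change -0.92, SE 0.18, edgeR adjusted p = 0.00344). ATP5MC2 and ATP5MC3 had log2 fold changes of -0.51 and -0.35, both lost without vehicle library 1, treated library 1 or treated library 3 (edgeR adjusted p up to 0.0984). The GC and length correction gave ATP5MC3 the lowest value, -1.25, against -0.49 for ATP5MC1 and -0.07 for ATP5MC2, which did not pass (edgeR adjusted p = 0.494). Of the 4 subunits of the peripheral stalk, which holds the head still against the rotor, ATP5PF fell (log2 fold change -0.36, edgeR adjusted p = 0.0479). This call was lost under 8 of the 16 alternatives, among them no count filter, the replicate block, leaving out vehicle library 1 or 2 or treated library 1 or 3 (edgeR adjusted p up to 0.154), and the GC and length correction (-0.07, edgeR adjusted p = 0.504). ATP5PB, ATP5PD and ATP5PO had log2 fold changes of 0.21, -0.16 and -0.10 and did not pass. ATP5PF shares exon bases with GABPA on the opposite strand, and GABPA rose, as given below.

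Ratios of CPM between subunits of 1 complex show the unequal changes within each library. The scaling between libraries cancels in them, but a trend with GC content or length does not. SDHA to SDHC was 1.18, 1.12 and 1.19 in treated libraries and 3.32, 3.68 and 2.85 in vehicle libraries. UQCRFS1 to UQCRC2 was 0.114 ± 0.0157 in treated and 0.529 ± 0.0751 in vehicle libraries (SD, n = 3 each), and NDUFV2 to NDUFS1 was 0.597 ± 0.0691 and 2.05 ± 0.222. COX5B to COX5A was 0.166 ± 0.00188 after treatment and 0.413 ± 0.0707 in vehicle, and ATP5F1D to ATP5F1B was 0.121 ± 0.0179 and 0.267 ± 0.0377. Corrected for GC content and length, the difference in log2 fold change was -0.26 for SDHA and SDHC, against -1.51 without it, and -0.77 for NDUFV2 and NDUFS1, against -1.76, and -0.39 for ATP5F1D and ATP5F1B, against -1.16. For ATP5MC1 and ATP5MC3 it turned to 0.76 with the correction, against -0.57 without. In all 10 ratios computed the groups did not overlap, but the pairs were chosen after the values were seen, so this only describes the choice. The two-sided exact permutation test gave 0.1 for each, also after adjustment over the 10. With 3 libraries a group it cannot go lower, so it decides nothing here.

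Per kilobase of the annotated transcript, the highest levels among the 78 in treated libraries were those of COX8A (455 CPM per kb), ATP5F1B (406) and COX4I1 (380 CPM per kb). In vehicle libraries the order was COX8A (835 CPM per kb), COX4I1 (549), NDUFS8 (390), COX6A1 (379) and ATP5F1B (376 CPM per kb). The lowest were NDUFV3, at 2.02 CPM per kb in treated libraries, and NDUFS1, at 3.67 CPM per kb in vehicle libraries. These levels depend on the annotated length, which is 11819 bases for NDUFS1, 13566 for SDHC and 8363 for NDUFA9.

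The size of the fall went with base composition. Across the 78 subunit genes, the log2 fold change had a Spearman correlation of -0.65 with the GC content of the transcript and 0.44 with its length, as a description across genes of the same libraries. Over 13976 tested protein-coding genes the same values were -0.54 and 0.34. In single libraries, the deviation of a gene from its mean over the 6 libraries had a correlation with GC content of -0.55, -0.44 and -0.50 in treated and 0.51, 0.62 and 0.20 in vehicle libraries. Whether this trend came from the treatment, from the libraries' preparation or from RNA quality was not tested.

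Within ranges of GC content, the members' counts were set beside those of all protein-coding genes in the same range. Length was not matched. The median transcript length was 1058.5 bases for the 78 subunit genes and 2997 bases for tested protein-coding genes. Among the 26 with the lowest GC content (36.4% to 45.5%), 8 fell and 1 rose, where 6.72% of protein-coding genes in that range fell and 56.2% rose. Among the 26 in the middle (45.7% to 53.5%), 17 fell and 0 rose, beside 20.5% and 34.9%. The 26 with the highest GC content (53.7% to 69.6%) all fell, beside 53.8% lower and 10.3% higher among protein-coding genes. The median log2 fold changes of these 3 sets were -0.21, -0.56 and -0.89 from low to high GC, beside 0.74, 0.17 and -0.60 for the protein-coding genes of the same ranges.

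A fit with offsets for GC content and transcript length in each library gave 55 of the 78 lower and 0 higher. Over the 13976 protein-coding genes in that fit, 29.6% were lower and 24.9% higher. The members' median was -0.44, against -0.06 for all protein-coding genes, and 74 of the 78 values were negative. Of the 51 calls, 39 were kept, 12 were lost, namely NDUFV1, NDUFA1, NDUFA13, NDUFB10, NDUFB11, CYC1, UQCRC1, UQCRQ, COX4I1, ATP5MC2, ATP5ME and ATP5PF, and 16 others passed, among them NDUFS1, SDHC, UQCRB and ATP5F1A. NDUFV3, NDUFB9, UQCRFS1 and NDUFV2 were again the members with the largest falls, at -2.93, -1.98, -2.48 and -1.74. After the correction the members' values rose with GC content (Spearman correlation 0.40), the reverse of the trend before it. Such a correction takes out whatever follows GC content or length, treatment effects included. It also depends on the transcript chosen for each gene. NDUFS1, SDHC, UQCRB and ATP5F1A were given 11819, 13566, 5575 and 5818 bases, beside a median of 1058.5 over the 78. Other transcripts of these genes were not tested.

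**Figure D5:**
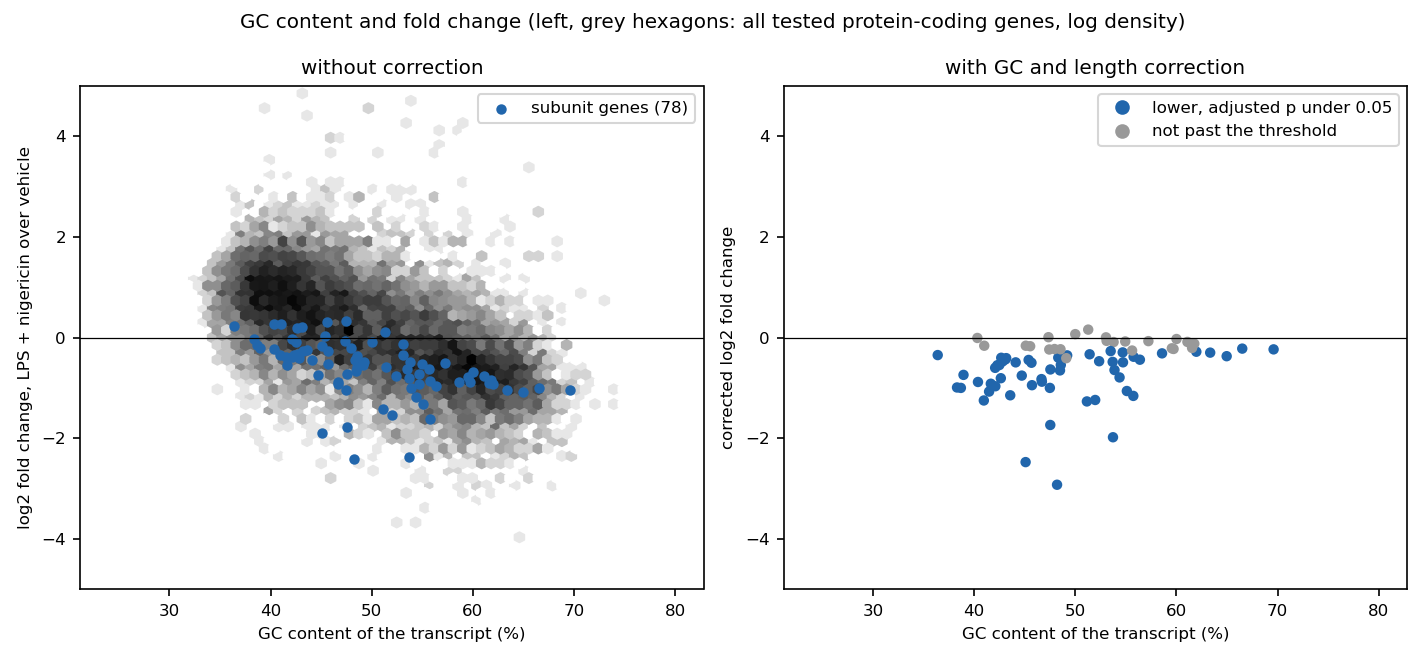
Log2 fold change (y axis, LPS plus nigericin over vehicle) against the GC content of the transcript (x axis, %), left as fitted, with the 78 subunit genes in blue over the density of all tested protein-coding genes in grey (a few genes beyond the axis are not drawn), right with the GC and length correction. Left, the blue points follow the downward slope of the grey cloud and sit mostly in its lower part, and right, 74 of the 78 lie below 0.

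The partner subunits that the mitochondrial genome encodes were higher in sum. Their 13 genes summed to 78649 ± 1402 CPM in treated and 62931 ± 8982 CPM in vehicle libraries (SD, n = 3 each). Of these genes 2 fell, 6 rose and 5 did not pass, beside 26.4% lower and 28.9% higher over all tested genes. Under the GC and length correction 3 rose and 2 fell, beside 24.9% higher and 29.6% lower over protein-coding genes. MT-ND4, MT-CO1 and MT-ATP6 no longer passed with it (edgeR adjusted p = 0.250, 0.244 and 0.0567). MT-ND4L, a membrane subunit of complex I, had 2087, 1798 and 1867 CPM after treatment and 739, 864 and 823 CPM in vehicle, without overlap (log2 fold change 1.25, SE 0.12, edgeR adjusted p = 0.000172). MT-ND2 rose by 0.75 on the log2 scale (edgeR adjusted p = 0.00370), and MT-ND3 fell with -0.69 (edgeR adjusted p = 0.00262). MT-ND6, the 1 protein gene on the light strand, had 498, 507 and 458 CPM after treatment and 1186, 1813 and 1163 CPM in vehicle, without overlap (log2 fold change -1.51, SE 0.19, edgeR adjusted p = 0.000477). Without a stated strand setting, reads from MT-ND6 and from the opposite strand cannot be told apart.

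The ratio of MT-CO1, the catalytic subunit of complex IV, to COX4I1 was 91.4, 78.5 and 86.4 in treated libraries and 46.4, 38.1 and 52.9 in vehicle libraries. That of MT-ATP6 to ATP5F1A was 50.8, 47.7 and 48.0 in treated and 28.7, 36.3 and 24.8 in vehicle libraries. The difference in log2 fold change was 0.93 for the MT-CO1 pair and 0.70 for the MT-ATP6 pair, and 0.24 and 1.35 with the GC and length correction. The 2 mitochondrial rRNAs took 4.31% to 4.63% of counts in treated libraries and 0.446% to 0.469% in vehicle libraries, and the whole mitochondrial genome 12.0% to 12.4% and 6.49% to 7.33%. Nuclear subunit genes took 0.575% to 0.652% in treated and 0.847% to 0.979% in vehicle libraries. Leaving out the genes of the mitochondrial genome and rRNA genes before normalization gave the same count of 51 lower members.

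Factors that build the complexes were mixed, with large falls of single genes. Of 16 assembly factors of complex I, 7 fell, 1 rose and 8 did not pass, and with the GC and length correction 8 fell and 0 rose. For these and the other complexes' factors, the shares over all tested genes were 26.4% lower and 28.9% higher. With the correction they were 29.6% and 24.9% of protein-coding genes. FOXRED1, an oxidoreductase needed for complex I assembly, had 35.7, 43.8 and 43.4 CPM in treated and 143, 184 and 123 CPM in vehicle libraries (log2 fold change -1.87, SE 0.17, edgeR adjusted p = 0.000146). TMEM186 fell with -1.60 and NUBPL, which delivers iron-sulfur clusters to complex I, rose with 1.05 (edgeR adjusted p = 0.000474 and 0.0147), though with the GC and length correction NUBPL was at 0.38 and did not pass (edgeR adjusted p = 0.112).

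Of the 4 assembly factors of complex II 3 fell and 1 did not pass. SDHAF1, which helps to insert the iron-sulfur clusters of SDHB, had 2.49, 2.72 and 3.65 CPM in treated and 16.2, 21.3 and 12.5 CPM in vehicle libraries (log2 fold change -2.49, SE 0.25, edgeR adjusted p = 0.000207). SDHAF2, which helps to attach the flavin to SDHA, fell with -0.77 (edgeR adjusted p = 0.00193). All treated libraries lay below all vehicle libraries for both genes.

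For complex III 2 of 6 assembly factors fell, 1 rose and 3 did not pass, and with the correction 4 fell and 1 rose. UQCC3 fell with a log2 fold change of -1.34 and BCS1L, the translocase of the Rieske protein UQCRFS1, with -0.76. TTC19, which clears Rieske fragments, rose with 0.93 (edgeR adjusted p = 0.000418).

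For complex IV 10 of 24 fell, 5 rose and 9 did not pass, and with the correction 13 fell and 2 rose. SCO2, a copper chaperone, had 0.514, 0.851 and 1.00 CPM in treated and 8.21, 9.55 and 6.32 CPM in vehicle libraries (log2 fold change -3.34, SE 0.30, edgeR adjusted p = 0.000139). PET117 fell with -2.83, while COX19 rose with 0.66. LRPPRC, which stabilises mitochondrial mRNAs, had 123, 110 and 105 CPM in treated and 34.8, 29.4 and 41.6 CPM in vehicle libraries, all above (log2 fold change 1.68, SE 0.15, edgeR adjusted p = 0.000139). With the correction LRPPRC still rose, by 0.83.

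The list for complex V had 2 of 4 lower and 1 higher. ATP5IF1, the inhibitor that stops the synthase from running in reverse, had 28.6, 28.0 and 25.6 CPM after treatment and 55.6, 59.1 and 50.5 CPM in vehicle (log2 fold change -1.01, SE 0.12, edgeR adjusted p = 0.000421). The assembly factors of the F1 head split, with ATPAF2 at -0.99 and ATPAF1 at 0.59, and under the GC and length correction ATPAF1 was at -0.06.

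The mobile carriers and the quinone pathway went in both directions, with 6 of 15 genes lower, 5 higher and 4 not passing, and with the GC and length correction 8 lower and 2 higher. Over all tested genes 26.4% were lower and 28.9% higher, and with the correction 29.6% and 24.9% of protein-coding genes. CYCS, cytochrome c, which links complexes III and IV, had 135, 126 and 117 CPM in treated and 67.8, 51.6 and 88.9 CPM in vehicle libraries, all above (log2 fold change 0.86, SE 0.19, edgeR adjusted p = 0.00611). Under the correction CYCS was at 0.11 and did not pass (edgeR adjusted p = 0.269). COQ2 and COQ3, enzymes of ubiquinone synthesis, rose with log2 fold changes of 0.84 and 0.73, and COQ8B and COQ4, needed for the same pathway, fell with -1.34 and -1.22. With the correction these 4 calls held at 0.72, 0.40, -0.69 and -0.54. Of the 5 tested subunits and isoforms outside the symbol rule, CYCS included, 2 fell and 1 rose. NDUFAB1, the acyl carrier protein of complex I, had -0.32 (edgeR adjusted p = 0.0466), and NDUFA4L2 had -1.46 from a low level of 0.998 ± 0.537 CPM in treated and 2.76 ± 0.791 CPM in vehicle libraries (SD, n = 3 each). With the correction NDUFA4L2 did not pass (-0.73, edgeR adjusted p = 0.0885).

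Of 11 tested regulators of these genes and of the mitochondrial genome, 8 rose and 3 fell, and PPARGC1A had too few counts to be tested. Over all tested genes 28.9% rose and 26.4% fell. NRF1, a transcription factor of many subunit genes, rose by 0.77 on the log2 scale (SE 0.13, edgeR adjusted p = 0.00158), with levels of 24.1 ± 1.64 CPM in treated and 14.1 ± 0.538 CPM in vehicle libraries (SD, n = 3 each). PPRC1, a coactivator of the PGC-1 family, rose with 1.00 (edgeR adjusted p = 0.000506), and GABPA and TFAM, the packaging and transcription factor of mitochondrial DNA, with 1.31 and 1.17. POLRMT, the mitochondrial RNA polymerase, had 30.6, 35.7 and 40.5 CPM after treatment and 130, 164 and 95.5 CPM in vehicle, without overlap (log2 fold change -1.87, SE 0.21, edgeR adjusted p = 0.000314). TFB2M, the initiation factor that works with it, had 17.4, 13.6 and 17.9 CPM in treated and 5.57, 3.38 and 6.22 CPM in vehicle libraries (log2 fold change 1.69, SE 0.25, edgeR adjusted p = 0.000983). TFB1M, the rRNA methyltransferase, fell with -1.67. With the GC and length correction, 4 of the 11 rose and 4 fell, beside 24.9% higher and 29.6% lower over protein-coding genes. NRF1 was then at 0.48, GABPA at 0.43 (edgeR adjusted p = 0.0479), and TFAM was at 0.27 and did not pass (edgeR adjusted p = 0.109).

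Overlapping annotation touched 40 of the 78 subunit genes, whose exons share at least 50 bases with another gene. Of these 40, 26 fell, and of the 38 without such an overlap 25 fell. Among genes given above with values per library, UQCRFS1 and SDHC also overlap another gene on the opposite strand, and SDHD and COX8A on the same strand. The calls also changed when single libraries were left out. A fit with fewer libraries has less power, and how far this alone lowered the counts was not tested. Without treated library 1 the lower calls over all tested genes went from 5070 to 4000, and the members' median was -0.52, beside -0.55 with all libraries. Of the members, 33 fell without treated library 1, and without each library in turn the count ran from 33 to 56. The set that fell in each of these 6 fits held 32 genes, and 27 genes fell under all 16 alternatives, among them NDUFV3, NDUFB9, NDUFV2, NDUFS3, SDHA, UQCRFS1, UQCR10, COX5B, ATP5MF and ATP5F1D.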

How the data were processed

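RNA was measured in 6 libraries of T24 cells, 3 after LPS plus nigericin and 3 after vehicle, grouped by the sample titles and matched to columns by library name. The table the authors deposited lists unnormalized counts of Ensembl genes, a column for each library, and hg38 is the build per the submitters' processing notes. The aligner, counter, annotation release, strand setting and treatment of reads with several matches were not found in the sources used here. The labels name more than 1 company for RNA extraction.

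Counts were filtered with filterByExpr, scaled with TMM factors and tested over 19170 genes with edgeR 4.0.16 in R 4.3.3 (robust quasi-likelihood fit, F test, group as the only term, Benjamini-Hochberg adjustment, threshold 0.05). Every adjusted p-value is from that test unless another is named. CPM use TMM-scaled totals, and the SE is the absolute log2 fold change over the square root of F. The common biological coefficient of variation was 0.268, and library totals were 66180407 to 89152224 counts, so replicate spread and not counting limits precision. The scripts were tested on simulated counts with less spread than these, most genes unchanged and no trend with GC content or length. That test says nothing about the GC and length correction where such a trend is present. Gene places, exon overlaps (50 bases or more), length and GC content (APPRIS principal transcript) came from GENCODE 29, and promoters from RefSeq. Where principal transcripts tied, the better support level and then the longest transcript was taken.

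Alternatives were RLE factors, library totals, DESeq2 1.42.0, limma-voom (limma 3.58.1), no filter beyond genes at 0 everywhere, a minimum of 1 CPM in 3 libraries, a block for the replicate number, loess offsets in each library (span 0.3) for GC content and transcript length, both together, removal of mitochondrial and rRNA genes, and leaving out each library.

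The members, lists, markers and the GC correction were chosen with earlier results of these data known, and the ratios, GC ranges, motifs and printed promoters after values were seen. Values per library were set to be given for the 3 largest falls and rises of each complex among called genes of at least 5 CPM and for 12 core subunits, and from each list for the 2 genes with the smallest p in each direction. Others named here (NDUFA7, NDUFS8, NDUFA10, SDHC, SDHD and UQCRC1 with values per library, CYCS in its list by rule, NRF1, GABPA, TFAM, SUCLA2, FH, OGDH and CS) were added after their values were seen. Python 3.11.15 and matplotlib 3.10.9 drew the figures. The values of 1 subunit gene are part of the counts and sums and are not reported here.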

Additional observations from a re-analysis of the deposited data

How the results depend on the processing

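The count of 51 lower members stayed between 49 and 58 under RLE factors, library totals, DESeq2, limma-voom, both other count filters, the replicate block, the GC and length correction with and without that block, and removal of mitochondrial and rRNA genes. Without each library in turn it ran from 33 to 56. The median of -0.55 ran from -0.59 to -0.43 over these settings and from -0.64 to -0.43 without single libraries. The count of 1 higher member was 0 under library totals, no count filter, the GC and length correction with and without the block, and the block alone, and 0 to 2 without single libraries. Over all tested genes the 5540 higher calls became 3484 with the GC and length correction and 3421 with the block added, on the 13976 protein-coding genes that have a GC value. Without single libraries they ran from 4341 to 6061, and the 5070 lower calls from 4000 to 5286.

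Under the GC and length correction, without and with the block, 5 genes that passed in at least one of the fits compared turned from above to below 0, NDUFA5 to -0.35 in both, NDUFC2 to -0.45 and -0.44, SDHC to -0.81 and -0.78, UQCRC2 to -0.17 and -0.16 and ATP5PB to -0.44 and -0.43. Without the block, NDUFA10 (-0.24), NDUFB5 (-0.0083) and SDHD (-0.16) turned too and passed in neither fit, which makes 8 in all. The cause was not tested. The replicate number as a block gave 52 lower and 0 higher members. No pairing by number was seen, but 3 libraries a group cannot exclude it. Same-numbered libraries' deviations correlated at -0.0231, 0.0956 and -0.0236, and those of other pairs at -0.101 to 0.122. The block ended the calls of UQCRC2 and ATP5PF (edgeR adjusted p = 0.0540 and 0.0551). The lowest mean level among the 78 subunits was that of NDUFB1, 6.67 CPM after treatment.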

Other observations

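Enzymes of the citrate cycle, which supply NADH and succinate to the chain, were also read from the same fit. Of 14 genes, 8 fell, 4 rose and 2 did not pass, with a median log2 fold change of -0.46, beside 26.4% lower and 28.9% higher over all tested genes. IDH2, the NADP-linked isocitrate dehydrogenase of mitochondria, had 54.1, 65.0 and 61.0 CPM in treated and 150, 168 and 129 CPM in vehicle libraries, and every treated library lay below (log2 fold change -1.31, SE 0.13, edgeR adjusted p = 0.000223). SUCLG1, the shared subunit of succinyl-CoA ligase, had 24.1, 26.8 and 26.7 CPM in treated and 63.0, 71.3 and 52.9 CPM in vehicle libraries (log2 fold change -1.27, SE 0.14, edgeR adjusted p = 0.000315). Both of its partner subunits changed the other way. SUCLG2 rose by 0.89 on the log2 scale (SE 0.19, edgeR adjusted p = 0.00524). SUCLA2 rose by 0.52 (edgeR adjusted p = 0.0224). With the GC and length correction SUCLG1 was at -1.37, SUCLG2 at 0.30 (edgeR adjusted p = 0.0162) and SUCLA2 at -0.10 (edgeR adjusted p = 0.354). IDH3A, a subunit of the NAD-linked isocitrate dehydrogenase, had 81.3, 73.5 and 81.2 CPM in treated and 61.0, 60.1 and 63.3 CPM in vehicle libraries, all above (log2 fold change 0.36, SE 0.10, edgeR adjusted p = 0.0195). With the correction IDH3A turned to -0.36 and passed as lower (edgeR adjusted p = 0.0253). Of the 14 genes 8 then fell and 1 rose, beside 29.6% lower and 24.9% higher over protein-coding genes. FH, fumarase, fell with -0.91 and OGDH, a subunit of the oxoglutarate dehydrogenase complex, with -1.01, while CS, citrate synthase, rose with 0.35, which the correction took to 0.06.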
